A study of Mus musculus with 12 samples.

Results

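The CXC and CX3C chemokine ligands of mouse oligodendrocyte precursor cells (OPCs) were followed through RNAseq of stimulated and resting cultures. The 10 genes were taken by symbol, as *Cxcl1*, *Cxcl2*, *Cxcl5*, *Cxcl9*, *Cxcl10*, *Cxcl11*, *Cxcl12*, *Cxcl14*, *Cxcl16* and *Cx3cl1*, out of 45563 symbols used. All 10 had reads, and all 10 passed the filter on low values.

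OPCs were isolated with beads against PDGFRα from cortices of C57BL/6 pups (C57BL/6J in the methods), aged 2 to 5 days per the labels and 3 to 5 days per the methods, and grown for 3 days in medium with PDGF-AA and FGF2. Cultures of wild-type (WT) and TNFR2-/- pups were left non-stimulated (NS) or were stimulated (St) for 3 h with TNF, IFNγ and IL1β together, each at 25 ng/mL. The 12 libraries form 4 groups of 3, numbered in the titles 2, 3 and 4 for WT and 2, 4 and 5 for TNFR2-/-. Each number has an NS and an St library, and these are called 1 culture here. The titles do not say that they share a culture, which was taken from the correlation of their values given below. TNFR2, the product of *Tnfrsf1b*, was deleted in the germline of the TNFR2-/- mice, so that every cell type of these cultures carries the deletion, and all 3 cytokines were given together, so that no library shows the response to 1 of them. The p-values measure the spread between these cultures, and the sources used here do not state how many pups each culture pooled.

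Library totals ranged from 26886878 to 30335265 read pairs. *Tnfrsf1b* went against the genotype labels. It had 12 to 24 reads in WT NS, 213 to 346 in NS libraries labeled TNFR2-/-, 61 to 145 in WT St and 282 to 356 in St libraries labeled TNFR2-/-, and a value for the whole gene does not show which exons were read, so that it does not check the deletion. Each direction between genotypes below therefore rests on the labels alone. Markers of OPCs were abundant, at a summed 3914 to 4913 reads per 1000000 (RPM, read pairs of the gene per 1000000 pairs of the library) in NS and 2727 to 3204 in St libraries. The summed level of 5 lymphocyte markers was at most 0.0666 RPM in a library, and of these *Cd3d* and *Ncr1* were at 0 in every group.

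Chemokines are small secreted proteins that attract cells bearing the matching receptor. *Cxcl1*, *Cxcl2* and *Cxcl5* encode ligands of CXCR2, the receptor of neutrophils, and *Cxcl9* and *Cxcl10* encode interferon-inducible ligands of CXCR3, which is carried by activated T cells. *Cxcl11* is grouped with the CXCR3 ligands but is annotated as a polymorphic pseudogene. Whether its transcripts in these cultures can make a working ligand was not tested. CXCL12 binds CXCR4 and ACKR3, whereas CXCL16 and CX3CL1 are made as membrane proteins with a mucin-like stalk and are released by ADAM proteases. CX3CL1, also called fractalkine, is known in the brain as a neuronal signal to CX3CR1 on microglia.

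The genes lie in clusters on mouse chromosome 5 and singly elsewhere. By GENCODE M21 on GRCm38, *Cxcl5* (90759360 to 90761624), *Cxcl1* (90891241 to 90893115) and *Cxcl2* (90903871 to 90905938) lie on the plus strand of chromosome 5. *Cxcl9* (92321347 to 92328079), *Cxcl10* (92346638 to 92348889) and *Cxcl11* (92359544 to 92365485) follow on the minus strand, 1415 kb away. *Cxcl12* lies on chromosome 6 (117168535 to 117181367), *Cxcl14* on chromosome 13 (56288643 to 56296551), *Cxcl16* on chromosome 11 (70453983 to 70459984) and *Cx3cl1* on chromosome 8 (94772009 to 94782427). All are annotated as protein coding except *Cxcl11*, which is a polymorphic pseudogene in this annotation.

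Upstream sequences are shown for the induced genes of both clusters and, as a contrast, for *Cxcl14*, which was not called with stimulation. RefSeq promoters of GRCm38.p6 were found for 7 of the 10 genes, not including *Cxcl5*, *Cxcl11* and *Cxcl16*. The stretches are chr5:90890995-90891240 (plus strand) for *Cxcl1*, chr5:90903649-90903870 (plus) for *Cxcl2*, chr5:92328080-92328329 (minus) for *Cxcl9*, chr5:92348890-92349139 (minus) for *Cxcl10* and chr13:56296552-56296801 (minus) for *Cxcl14*, each upstream of the annotated gene. They are written 5′ to 3′ on the strand of the gene, and capitals mark matches on either strand. The motifs were κB (GGG and CC with 5 bases of any kind between them), GAS (TTC and GAA with 3 bases between) and the core of ISRE (GAAA on both sides of 2 bases), and matches of 1 motif that overlap were both kept.
Cxcl1: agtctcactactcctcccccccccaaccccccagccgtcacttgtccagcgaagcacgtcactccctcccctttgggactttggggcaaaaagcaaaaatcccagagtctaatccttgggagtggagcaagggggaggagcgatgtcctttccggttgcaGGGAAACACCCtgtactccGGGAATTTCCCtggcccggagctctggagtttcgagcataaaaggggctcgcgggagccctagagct
Cxcl2: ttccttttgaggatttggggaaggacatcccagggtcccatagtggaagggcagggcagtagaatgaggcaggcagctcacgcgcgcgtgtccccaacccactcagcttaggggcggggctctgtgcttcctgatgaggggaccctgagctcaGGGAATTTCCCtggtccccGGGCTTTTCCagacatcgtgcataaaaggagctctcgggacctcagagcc
Cxcl9: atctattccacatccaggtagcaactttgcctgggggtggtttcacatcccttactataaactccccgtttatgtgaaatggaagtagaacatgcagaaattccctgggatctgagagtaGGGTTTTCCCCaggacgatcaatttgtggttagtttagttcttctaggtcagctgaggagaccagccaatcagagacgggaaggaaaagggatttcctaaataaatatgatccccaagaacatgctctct
Cxcl10: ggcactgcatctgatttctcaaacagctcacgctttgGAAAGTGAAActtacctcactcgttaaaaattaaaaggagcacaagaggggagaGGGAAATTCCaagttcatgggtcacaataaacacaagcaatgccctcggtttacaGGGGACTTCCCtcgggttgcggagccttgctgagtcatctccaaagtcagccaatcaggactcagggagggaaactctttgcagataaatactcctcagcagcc
Cxcl14: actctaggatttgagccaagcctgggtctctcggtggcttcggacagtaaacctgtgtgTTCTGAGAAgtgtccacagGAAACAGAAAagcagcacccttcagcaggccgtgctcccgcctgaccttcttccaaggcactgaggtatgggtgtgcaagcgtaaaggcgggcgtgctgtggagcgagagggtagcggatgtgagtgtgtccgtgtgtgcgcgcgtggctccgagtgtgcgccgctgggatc
In the 250 bases before the RefSeq start, *Cxcl1* and *Cxcl2* each held κB matches in 2 separate places. The match GGGAATTTCC began 71 bases before the start of *Cxcl1* and 97 bases before that of *Cxcl2*. *Cxcl10* also held κB matches in 2 places, beginning 159 and 104 bases before its start, and an ISRE core, GAAAGTGAAA, at 213 bases. *Cxcl9* held κB matches that overlap each other, the first at 130 bases. *Cxcl14* held no κB match but a GAS match at 191 bases and an ISRE core at 172 bases, and *Cxcl12* held 1 κB match. *Cx3cl1* held none of the 3 motifs. Among all 32851 promoters of the same length, 45.8% held a κB match, 7.02% a GAS match and 2.98% an ISRE core, so that a κB match by itself is common.

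In the resting cultures the family was made up almost wholly of *Cx3cl1* and *Cxcl14*. Which cell type of these bulk cultures made the transcripts was not tested. Levels of different genes are compared as RPM per kb of annotated exon. On this scale *Cx3cl1* had 69.2 ± 2.32 (SD, n = 3) in WT NS and *Cxcl14* 32.4 ± 3.38, which is 67.0% and 31.3% of the summed level of the 10 genes. In NS libraries labeled TNFR2-/- these shares were 60.1% and 35.9%. *Cxcl10* came next with 0.767 ± 0.314 in WT NS, and from there each gene in the order *Cxcl10*, *Cxcl1*, *Cxcl12*, *Cxcl16*, *Cxcl5*, *Cxcl2*, *Cxcl9* and *Cxcl11* overlapped the next.

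After 3 h of cytokines *Cxcl10* led. In WT St it stood at 1153 ± 129 on this scale, or 62.9% of the sum, followed by *Cxcl1* at 277 ± 71.1 (15.0%) and *Cx3cl1* at 267 ± 5.30 (14.7%), which overlapped each other. *Cxcl9* at 50.7 ± 13.95 and *Cxcl2* at 50.6 ± 14.01 also overlapped. In St libraries labeled TNFR2-/- the shares were 67.5% for *Cxcl10*, 11.7% for *Cx3cl1*, 11.2% for *Cxcl1* and 5.72% for *Cxcl9*. The summed RPM of the 10 genes went from 329 to 385 in the 6 NS libraries to 4045 to 5032 in WT St and 6202 to 7060.4 in St libraries labeled TNFR2-/-.

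**Figure D1:**
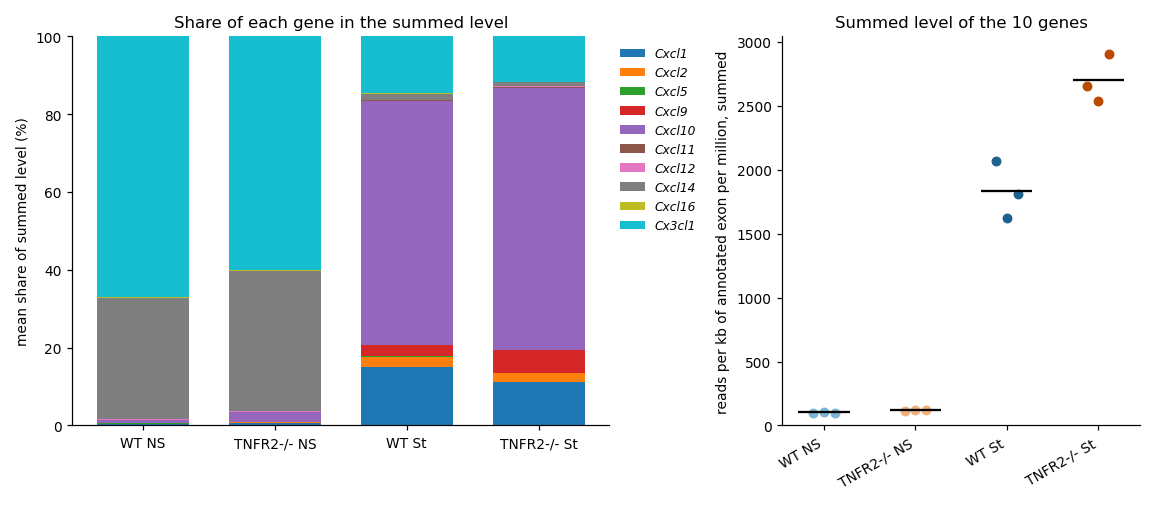
Left, mean share (%) of each of the 10 genes in their summed level, in RPM per kb of annotated exon, for the 4 groups of 3 libraries. Right, that summed level in each library (points) with the group mean (line). *Cx3cl1* and *Cxcl14* fill the NS bars, and *Cxcl10* takes 62.9% and 67.5% of the St bars.

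Stimulation was tested first, as St against NS within each genotype. Genes were called at an adjusted p of at most 0.05 with limma, a fold change of at least 1.5 and a mean of at least 1 FPKM. In WT, 7 of the 10 chemokines were called, all higher in St, against 4.58% of all tested genes called higher. In cultures labeled TNFR2-/-, 8 of 10 were called higher, against 5.41% of all genes. St libraries lay wholly above NS libraries for 9 of the 10 genes in both genotypes, which held for 13.7% and 12.7% of all genes. *Cxcl2*, *Cxcl5*, *Cxcl9* and *Cxcl11* averaged under 0.1 FPKM in both NS groups and passed the filter on low values only through their St libraries. These genes could therefore be called only as higher, and the shares of all genes set beside the counts do not correct for this. The median log2 change of the 10 genes was 4.24 in WT and 4.10 in cultures labeled TNFR2-/-, beside medians over all genes of −0.05 and −0.11. These medians depend on the divisor of the FPKM, which was not related to the annotated exon length. With the annotated length as divisor the WT change was 2.99 for *Cxcl11* (5.76 in the main fit), 1.51 for *Cxcl16* (2.99) and 6.5 for *Cxcl2* (5.48). Over all genes in cultures labeled TNFR2-/-, 978 were called higher and 846 lower, against 1108 and 554 with median-of-ratios factors.

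Other marker lists were set beside these changes. The summed level of 5 neuron markers was 96.3 to 124 RPM in NS and 429 to 544 in St libraries, of which *Tubb3* made up a mean of 394 in WT St. In each genotype *Tubb3* was called higher and *Snap25* lower (in WT from 44.2 ± 14.4 to 21.3 ± 4.09 RPM, log2 −0.97 ± 0.23, limma adjusted p = 0.0154), and the other 3 neuron markers were not called. Of the microglia markers, *Aif1*, *C1qa*, *C1qb* and *C1qc* were at 0 or close to it. The summed levels of endothelial markers (28.5 to 63.1 RPM), mural cell and fibroblast markers (75.7 to 872 RPM) and markers of mature oligodendrocytes (275 to 817 RPM) overlapped between NS and St. Within these sums *Lum* was called higher in both genotypes (log2 1.97 and 2.08), on at most 24 reads a library. In cultures labeled TNFR2-/- *Pdgfrb* was called lower (log2 −1.57) and *Cldn5* higher (log2 0.98). The part of these genes in the chemokine changes was not tested, and in bulk libraries more cells of a type and more RNA per cell cannot be told apart.

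Among the CXCR2 ligands, *Cxcl1*, a main attractant of neutrophils, had 0.932, 0.298 and 1.001 RPM in the WT NS libraries 2, 3 and 4. It had 641, 377 and 543 RPM in the WT St libraries of the same numbers. In cultures 2, 4 and 5 labeled TNFR2-/- it had 0.432, 2.44 and 1.68 RPM in NS and 509.7, 636 and 549 RPM in St. Every St library was far above every NS library. The log2 change was 8.65 ± 0.38 (SE) in WT (limma adjusted p = 8.58e-08) and 8.22 ± 0.38 in cultures labeled TNFR2-/- (limma adjusted p = 1.01e-07), and the ratios of the mean RPM were 699 and 372.

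*Cxcl2*, the neighboring gene and a further CXCR2 ligand, was close to absent at rest. It had 1, 2 and 6 reads in WT NS and 4, 17 and 7 in NS libraries labeled TNFR2-/-. After stimulation it had 134, 75.9 and 104 RPM in WT and 83.0, 162 and 138 RPM in libraries labeled TNFR2-/-. The groups did not overlap, and the ratio of summed RPM was 1010.2 in WT (95% interval 532 to 2210.0, exact, counting error only) and 413 in cultures labeled TNFR2-/- (285 to 621). Its log2 change was 5.48 ± 0.24 in WT and 5.63 ± 0.24 in cultures labeled TNFR2-/- (limma adjusted p = 9.90e-08 and 7.36e-08). Of the 100-base stretches of its transcripts, 3.05% are shared with *Cxcl3*, which had no more than 19 reads in any library.

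*Cxcl5*, the last of this cluster, reached a far lower level. It had 4, 6 and 4 reads in WT NS and 5, 9 and 7 in NS libraries labeled TNFR2-/-, which became 197, 92 and 101 reads in WT St and 98, 115 and 91 in St libraries labeled TNFR2-/-. Its groups did not overlap and its log2 change, 1.95 ± 0.19 in WT and 1.67 ± 0.19 in cultures labeled TNFR2-/-, passed the adjusted p (limma, 4.54e-05 and 0.000108) and the fold, but its mean lay below the minimum of 1 FPKM and it was not called. With a minimum of 2 RPM in its place it was called in both genotypes. The ratios of summed RPM were 26.8 (15.8 to 49.5) and 14.8 (9.48 to 24.2).

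Among the CXCR3 ligands, *Cxcl10*, an interferon-induced attractant of activated T cells, had the largest change of the 10 genes on the log2(FPKM + 0.5) scale in both genotypes, whereas with voom *Cxcl9*, which had few reads at rest, changed more (12.29 against 10.60 in WT and 11.60 against 9.48 in cultures labeled TNFR2-/-). It had 1.57, 1.12 and 2.50 RPM in WT NS and 2912, 2342 and 2533 RPM in WT St. Its values were 3.06, 10.2 and 5.97 RPM in NS and 4138, 3747 and 4430.3 RPM in St libraries labeled TNFR2-/-. The St libraries lay in a narrow band within each genotype, far above the NS libraries. The log2 change was 10.20 ± 0.33 in WT (limma adjusted p = 1.004e-08) and 9.34 ± 0.33 in cultures labeled TNFR2-/- (limma adjusted p = 1.84e-08), with ratios of mean RPM of 1502 and 640.4.

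*Cxcl9*, which is known to need IFNγ for strong expression, went from 0, 0 and 2 reads in WT NS to 6018, 3578 and 4193 in WT St. In libraries labeled TNFR2-/- it went from 0, 12 and 11 reads to 10662, 8405 and 22836. No NS library came near an St library. The ratio of summed RPM was 6641 in WT, on 2 reads at rest (exact 95% interval 1838 to 54843, counting error only), and 1857 in cultures labeled TNFR2-/- (1238 to 2930.4), so that its size is known only within wide limits while its direction is the same in 6 of 6 cultures. The log2 changes were 5.91 ± 0.32 in WT and 7.29 ± 0.32 in cultures labeled TNFR2-/- (limma adjusted p = 4.54e-07 and 8.40e-08).

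*Cxcl11* had no read in the 3 WT NS libraries and 517, 282 and 417 reads in WT St, which is at least 129.8-fold higher against a floor of 3 reads per library. In NS libraries labeled TNFR2-/- it had 0, 3 and 0 reads, and in St libraries 828, 454 and 1091. The groups did not overlap in either genotype, and the ratio of summed RPM was 806 in cultures labeled TNFR2-/-, on 3 reads at rest (276 to 3913). The gene was called in both (limma adjusted p = 4.17e-07 in WT and 1.40e-07 in cultures labeled TNFR2-/-). Of its 100-base stretches, 39.1% are shared with *Gm2673*, an overlapping gene on the other strand that was listed at 0 in all 12 libraries, so that reads of these genes could not be told apart without strand.

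**Figure D2:**
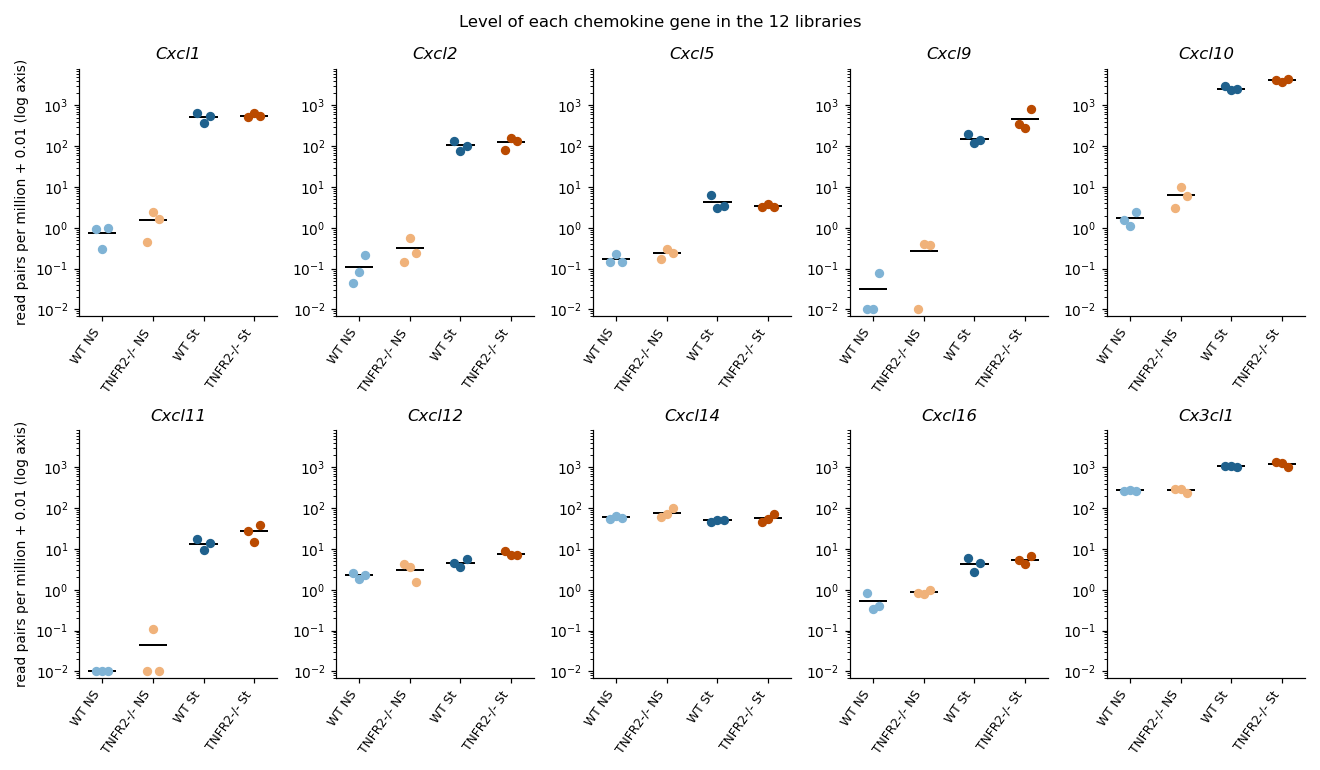
RPM of each of the 10 chemokine genes (plus 0.01, log axis) in the 12 libraries, by group of 3. Points are libraries and lines group means. St points stand above NS points for 9 genes, and *Cxcl14* is the exception.

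*Cxcl12* and *Cxcl14* changed less than the genes of chromosome 5. *Cxcl12*, which guides migrating progenitors through CXCR4, had 2.63, 1.86 and 2.34 RPM in WT NS and 4.59, 3.70 and 5.52 in WT St. In libraries labeled TNFR2-/- it had 4.15, 3.60 and 1.55 RPM in NS and 8.86, 7.24 and 6.93 in St. The groups did not overlap in either genotype, and each of the 6 cultures had a higher St value. The log2 change of 1.24 ± 0.27 was called in cultures labeled TNFR2-/- (limma adjusted p = 0.00664). In WT it was 0.85 ± 0.27 and was not called (limma adjusted p = 0.0552), but with the culture number as a replicate block it was (adjusted p = 0.0134). Over all alternatives the adjusted p in WT ranged from 0.00441 to 0.181. With the annotated length as divisor its mean fell below the minimum and the call in cultures labeled TNFR2-/- was lost, at a log2 change of 0.73 (adjusted p = 0.00387).

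*Cxcl14*, a chemokine expressed without induction in many tissues, had 53.6, 65.8 and 58.2 RPM in WT NS and 46.3, 52.5 and 50.5 in WT St. The values in libraries labeled TNFR2-/- were 59.8, 73.0 and 101 RPM in NS and 45.7, 55.6 and 72.0 in St. The WT groups did not overlap, those labeled TNFR2-/- did, and St was below NS in 6 of 6 cultures. The log2 changes of −0.25 ± 0.19 and −0.42 ± 0.19 were not called (limma adjusted p = 0.485 and 0.142). With the replicate block both passed the adjusted p (0.00466 and 0.000344) but remained under a fold of 1.5. Scaling by median-of-ratios factors set the change in cultures labeled TNFR2-/- to −0.30 ± 0.19 and moved the median of all genes from −0.11 to −0.02 there.

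Both membrane chemokines were called. *Cx3cl1* had the highest resting level of the family and the smallest log2 change among the 7 genes called in WT. It had 270.0, 282 and 264 RPM in WT NS and 1065, 1059 and 1026 in WT St, with 301, 294 and 240.2 RPM in NS and 1371, 1293 and 1021 in St libraries labeled TNFR2-/-. All 6 St libraries were above all 6 NS libraries, and the genotypes overlapped in NS and in St. The log2 change was 1.94 ± 0.11 in WT (limma adjusted p = 6.16e-07) and 2.13 ± 0.11 in cultures labeled TNFR2-/- (limma adjusted p = 2.82e-07), or 3.86-fold and 4.41-fold in mean RPM.

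*Cxcl16*, whose soluble form is a ligand of CXCR6, had 25, 9 and 12 reads in WT NS and 179, 83 and 133 in WT St. In libraries labeled TNFR2-/- it had 25, 23 and 29 reads in NS and 157, 127 and 191 in St. The groups did not overlap. The log2 change was 2.99 ± 0.33 in WT (limma adjusted p = 0.000122) and 2.58 ± 0.33 in cultures labeled TNFR2-/- (limma adjusted p = 0.000269), with ratios of mean RPM of 8.38 and 6.32. Its FPKM had been divided by 92 bases where the annotated exons span 3021, so that it passed the minimum of mean FPKM on few reads. With the annotated length in its place it fell below that minimum. Of its 100-base stretches, 14.2% are shared with *Zmynd15*, an overlapping gene on the other strand with 4 to 32 reads.

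**Figure D3:**
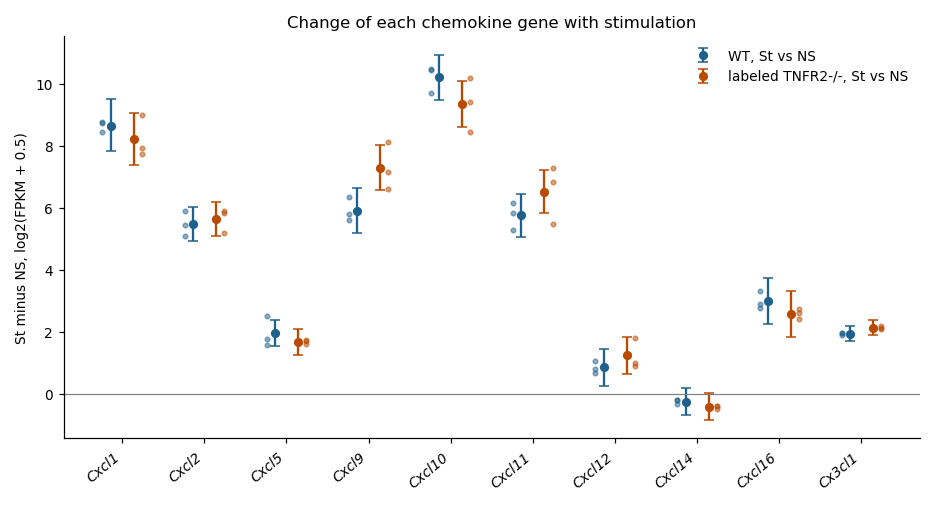
St minus NS on the log2(FPKM + 0.5) scale for each gene, in WT (blue) and in cultures labeled TNFR2-/- (orange). Large points and bars are the limma estimate with its 95% confidence interval and small points are the 3 cultures of each genotype. All cultures are above 0 for 9 genes and below 0 for *Cxcl14*.

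Genes of the pathways behind the cocktail rose as well. All 9 regulators of the NF-κB pathway on the list were called higher with stimulation in both genotypes, as were 9 of 10 genes of the IFNγ pathway, with *Ifngr1* the exception. *Irf1*, a transcription factor induced by IFNγ, stood at 7.55 ± 1.501 RPM in WT NS and 1168 ± 43.2 in WT St (SD, n = 3). Of 15 CC chemokine genes tested, 6 were called higher in each genotype. *Cxcl3*, a further CXCR2 ligand of this neighborhood, had 0 reads in WT NS and 5 to 17 in WT St, and the other 6 CXC and XC ligands had at most 6 reads in all 12 libraries together.

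The receptors of these ligands were mostly missing from the cultures. *Cxcr3* had 1 read in all 12 libraries together, *Cxcr1* 2, *Cxcr2* 6, *Cx3cr1* 6 and *Cxcr6* 29. Of the 4 tested genes on the list of CXC and CX3C chemokine receptors, 1 was called lower and 1 higher in each genotype. *Cxcr4* fell from 7.55 ± 2.84 RPM to 1.54 ± 0.348 in WT (log2 −1.76 ± 0.38, limma adjusted p = 0.01002) and from 8.001 ± 3.43 to 1.11 ± 0.796 in cultures labeled TNFR2-/- (log2 −2.18 ± 0.38, limma adjusted p = 0.00208).

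*Ackr3*, the scavenging receptor that removes CXCL12, rose from 3.23 ± 0.454 to 31.8 ± 1.52 RPM in WT (log2 2.74 ± 0.11, limma adjusted p = 4.89e-08) and from 3.54 ± 0.327 to 47.9 ± 5.40 in cultures labeled TNFR2-/- (log2 3.22 ± 0.11, limma adjusted p = 1.44e-08). The 2 receptors of CXCL12 thus moved in opposite directions in both genotypes. *Ackr1* and *Cxcr5* were not called. *Adam10* and *Adam17*, the proteases that release CX3CL1 and CXCL16, were not called either, with 174 ± 7.16 and 68.8 ± 4.59 RPM in WT NS and 164 ± 13.3 and 69.8 ± 3.92 in WT St.

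**Figure D4:**
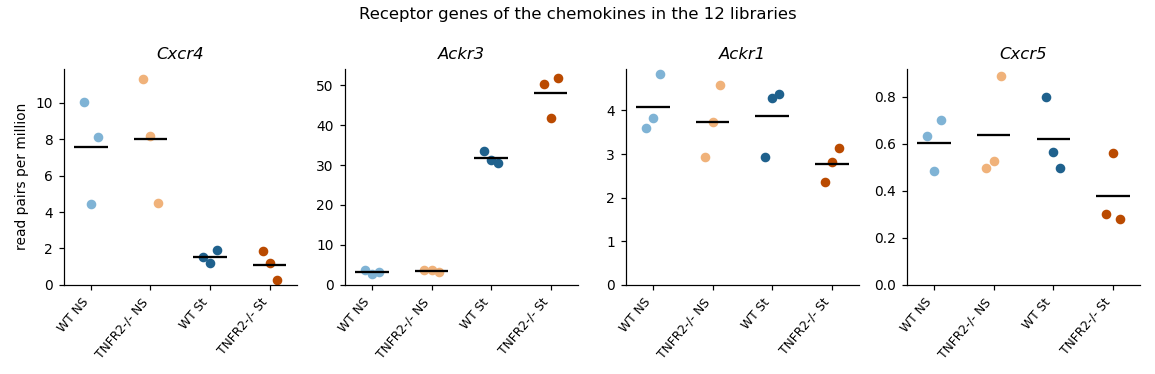
RPM of the 4 receptor genes that were tested, in the 12 libraries, by group of 3 (points) with the group mean (line). Each panel has its own linear axis from 0. *Cxcr4* is lower and *Ackr3* higher in St libraries of both genotypes.

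Between the genotypes, 1 of the 10 genes was called in each condition. In NS, *Cxcl10* was called higher in libraries labeled TNFR2-/- (1.62% of all genes were called higher). The ratio of the mean RPM was 3.71, at 6.41 ± 3.60 against 1.73 ± 0.708 (SD, n = 3), and the log2 difference was 1.52 ± 0.33 (95% interval 0.78 to 2.26, limma adjusted p = 0.0247). Its lowest library labeled TNFR2-/-, at 3.06 RPM, was above the highest WT library, at 2.50. The call was lost without WT NS culture 3 (limma adjusted p = 0.104), without WT NS culture 4 (0.0611), without NS culture 5 labeled TNFR2-/- (0.0750) and in a fit of the 6 NS libraries alone (0.113), and over all alternatives the adjusted p ranged from 0.0181 to 0.113.

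Groups did not overlap for 1 of the 10 genes in NS, against 19.9% of all genes higher without overlap. The other 9 genes were not called, with log2 differences from 0.03 to 0.75. *Cxcl16* at 0.75 ± 0.33 was called once, without WT NS culture 2 (limma adjusted p = 0.0458). NS culture 4 labeled TNFR2-/- had the highest level of the 6 NS libraries for *Cxcl1*, *Cxcl2*, *Cxcl5*, *Cxcl9*, *Cxcl10* and *Cxcl11*. Without it the log2 difference of *Cxcl10* was 1.14 ± 0.28 (limma adjusted p = 0.0297). *Irf1* was also called higher in NS libraries labeled TNFR2-/-, at 11.8 ± 1.11 against 7.55 ± 1.501 RPM, and *Rel*, an NF-κB subunit, was called lower, at 10.3 ± 1.74 against 17.3 ± 1.73 RPM.

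In St, *Cxcl9* was called higher in libraries labeled TNFR2-/- (1.18% of all genes were called higher). The values were 355, 278 and 796 RPM against 200.03, 119 and 139 RPM in WT. All 3 libraries labeled TNFR2-/- were above all 3 WT libraries, and culture 5 stood well above the others. The log2 difference was 1.51 ± 0.32 (95% interval 0.79 to 2.22, limma adjusted p = 0.0329), with a ratio of mean RPM of 3.12. Without St culture 5 labeled TNFR2-/- the log2 difference was 1.06 ± 0.20 (limma adjusted p = 0.0512). The call was also lost without WT NS culture 4 (0.0540), WT St culture 3 (0.124), WT St culture 4 (0.109) or St culture 2 labeled TNFR2-/- (0.0604), in a fit of the 6 St libraries (0.108) and with no filter on low values (0.0587), and the adjusted p ranged from 0.0136 to 0.124.

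St groups did not overlap for *Cxcl9*, *Cxcl10* and *Cxcl12*, or 3 of 10 genes, against 15.4% of all genes higher without overlap. *Cxcl10* had 4105 ± 343 RPM in libraries labeled TNFR2-/- and 2596 ± 289.8 in WT. Its log2 difference of 0.66 ± 0.33 was not called (limma adjusted p = 0.232) but was with voom on the recovered reads (adjusted p = 0.0247). *Cxcl11* at 0.93 ± 0.31 was called only without St culture 4 labeled TNFR2-/- (limma adjusted p = 0.0311, against 0.0962 with it). *Cxcl12* at 0.68 ± 0.27 (limma adjusted p = 0.141) was called without NS culture 5 labeled TNFR2-/- (0.0390). The other 6 genes were not called, with log2 differences from −0.21 for *Cxcl5* to 0.33 for *Cxcl16*. WT St culture 3 had the lowest level of the 6 St libraries for 8 of the 10 genes.

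**Figure D5:**
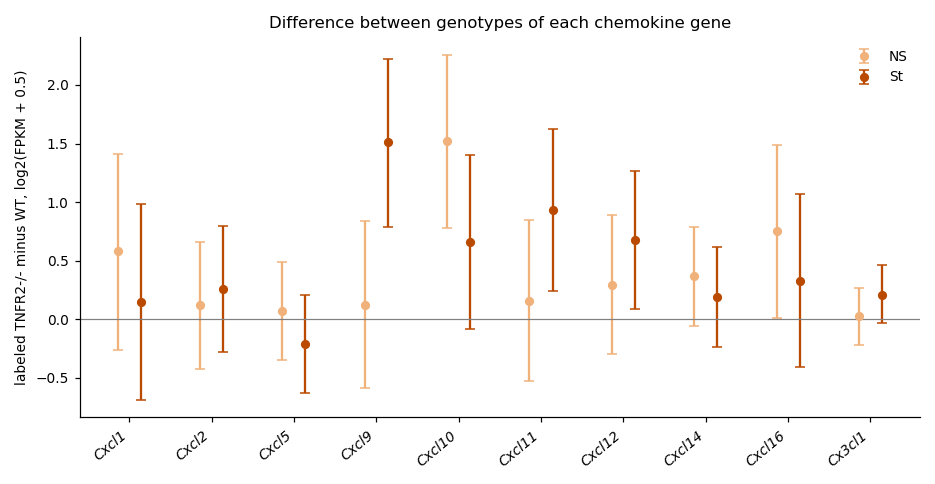
Difference of libraries labeled TNFR2-/- from WT on the log2(FPKM + 0.5) scale, in NS (light) and St (dark), for each gene. Points are limma estimates and bars 95% confidence intervals. *Cxcl10* in NS (1.52) and *Cxcl9* in St (1.51) were the differences called.

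The cultures of the genotypes also differed in other genes. The summed level of 6 astrocyte markers was 1557 to 1908 RPM in the 6 WT libraries and 2340 to 3843 in the 6 libraries labeled TNFR2-/-, without overlap, and *Slc1a3*, an astrocyte glutamate transporter, was 1635 against 1009 RPM in St. Over all genes, 293 were called higher and 231 lower in NS, against 213 and 262 with quantile normalization. *Il1r1*, the receptor of IL1β, was called higher in libraries labeled TNFR2-/- in NS (log2 1.09 ± 0.29, limma adjusted p = 0.0417) and in St (log2 1.21 ± 0.29, limma adjusted p = 0.0440). *Il1rap*, its co-receptor, was called lower in NS, at 318 ± 41.4 against 481 ± 40.9 RPM (log2 −0.60 ± 0.10, limma adjusted p = 0.0142), and was not called in St. The part of these differences in the chemokine results was not tested.

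Whether stimulation changed the genes by a different amount in the genotypes was tested as an interaction. None of the 10 chemokines was called with limma, against 0.00553% of all genes, and *Cxcl9* alone had an unadjusted p under 0.05. Its interaction was 1.38 ± 0.46 on the log2 scale (limma unadjusted p = 0.0122, adjusted p = 0.537). That of *Cxcl10* was −0.86 ± 0.47 (limma adjusted p = 0.708). With the culture number as a replicate block the limma adjusted p was 0.140 for *Cxcl9* and 0.315 for *Cxcl10*. The lowest of the 10 genes with this block was 0.111, for *Cx3cl1*, and none was called. Voom on the recovered reads also called none. With voom the interaction of *Cxcl9* was −0.69, where the genotype difference at rest, on 0 to 12 reads a library, was 2.21 ± 3.18 (SE) against 0.12 ± 0.32 on the log2(FPKM + 0.5) scale.

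The genes whose profile over the 12 libraries was closest to each chemokine were found among 13553 genes by Pearson's r on the log2(FPKM + 0.5) scale, as a description that is set mainly by the contrast of St with NS. For *Cxcl10* they were *Tgtp2*, *Tgtp1* and *Gm4951* (each r = 0.998), and for *Cxcl9* *Fam26f*, *Gbp10* and *Steap4* (r of at least 0.999). *Cxcl11* was nearest to *Gbp4*, *Gbp5* and *Tlr2* (0.998). *Cxcl2* was nearest to *Ripk2* (0.997) and *Relb* (0.996). *Cx3cl1* was nearest to *Ccl7*, *Batf3* and *Pak6* (0.995). *Cxcl14*, which changed least with stimulation, was nearest to *Ptchd2* (0.980), *Fam63a* (0.963) and *Bcan* (0.962), and *Cxcl12* to *Clic4* (0.968).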

How the data were processed

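Primary mouse OPCs were sequenced in 12 libraries of 4 groups. Per the methods and labels, reads were cleaned with Trim Galore, mapped to GRCm38 with Ensembl gene models and counted as pairs per gene with STAR. The methods name a BGISeq-500 platform, and the labels Illumina protocols. The deposited values are FPKM per gene symbol, which the authors made from these counts, in 1 table for NS and 1 for St. Each held 45792 entries, and the 229 that share a symbol were left out. No column of another sample was used.

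Read pairs were recovered as whole multiples of the FPKM of 1 read, and 26636 of 26636 genes above 0 in 2 or more libraries came out whole (within 0.02 reads). For each gene the divisor was searched until its reads came out whole. For genes above 0 in few libraries this search nearly always succeeds, so that the count is no check of their reads. Totals of 26886878 to 30335265 read pairs limit the precision of low genes. The divisor of the FPKM was the same in both tables but was not related to the annotated exon length (Spearman 0.01 across 16010 genes, with no claim that genes are independent), so that genes were compared per kb of GENCODE M21 exons.

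The test was limma 3.58.1 (R 4.3.3) on FPKM with 0.5 added and log2 taken. It fitted the 4 groups together, with variances moderated toward a trend in the mean level, and fold changes on this scale understate those of low genes. Of the genes, 18081 averaged 0.1 FPKM or more and entered the fit. A call needed an adjusted p (Benjamini-Hochberg, over all genes tested) up to 0.05, a fold of 1.5 or more (0.585 on the log2 scale) and an average of 1 FPKM or more. With 3 libraries against 3, an exact permutation test of 1 gene cannot give a p below 0.1 and was not used. Ratios on low reads have exact binomial intervals (95%, counting error only), and a group at 0 was set to 3 reads per library.

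Replicate numbers paired libraries within a genotype. After removal of group means, NS and St libraries of the same number correlated at 0.34 to 0.65 (6 pairs, 13554 genes), and those of other numbers at −0.45 to 0.088 (12 pairs). The blocked value stands beside a result where it changed the call. Across genotypes, 4 pairs of the same number correlated at −0.055 to 0.2, so that numbers did not pair WT with TNFR2-/-. Tables and figures were made with Python 3.11.15, numpy 2.4.6, pandas 2.3.3 and matplotlib 3.10.9.

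All 10 chemokines were named. Genes of fixed lists were named where called, where they are on the receptor list or where they set a list's count. *Slc1a3*, *Snap25*, *Tubb3*, *Lum*, *Pdgfrb* and *Cldn5* were named after their values were seen. Some marker genes are not reported here. The members and lists were chosen with earlier results of these data known.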

Additional observations from a re-analysis of the deposited data

How the results depend on the processing

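The counts of chemokines called with stimulation stayed within 1 of the main count under the alternatives run, which were other pseudocounts, filters, thresholds, scalings and fits, the replicate block, voom and each library left out. They were 7 to 8 in WT and 7 to 9 in cultures labeled TNFR2-/-, no gene changed direction, and the calls that moved were those of *Cxcl5*, *Cxcl12* and *Cxcl16*. Counts between genotypes were less stable. In NS, 0 genes were called in a fit of the 6 libraries alone and 0 to 2 with a library left out. In St, 0 were called with no filter on low values, 0 in a fit of the 6 libraries alone, 2 with voom (*Cxcl9*, *Cxcl10*), 2 with a replicate block across genotypes (*Cxcl9* and *Cxcl12*, adjusted p = 0.0404 and 0.0461, although these numbers do not pair genotypes) and 0 to 2 with a library left out. The interaction had 0 calls in each of 27 alternatives. The cause was not tested. The block within genotype changed no call other than that of *Cxcl12* in WT.

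Small genotype differences that were not called changed sign. With the replicate block across genotypes they were −0.02 for *Cxcl2*, −0.2 for *Cxcl9* and −0.06 for *Cxcl11* in NS, and −0.15 for *Cxcl1* and −0.06 for *Cxcl16* in St. *Cx3cl1* in NS was −0.02 with median-of-ratios factors. With a library left out, *Cx3cl1* in NS ranged from −0.03 to 0.13, *Cxcl1* in St from −0.07 to 0.31, *Cxcl5* in St from −0.37 to 0.06, and the interaction from −0.06 to 0.42 for *Cxcl2* and from −0.35 to 0.03 for *Cxcl14*. Other interactions changed sign to 0.07 for *Cxcl1* (library weights), −0.16 (pseudocount 0.1) and −1.2 (voom) for *Cxcl2*, −0.69 for *Cxcl9* (voom) and 0.02 for *Cxcl16* (annotated exon length as divisor, chosen after seeing the data). Depth limits *Cxcl2*, *Cxcl5*, *Cxcl9* and *Cxcl11* at rest, where 0 to 17 reads set the fold.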
